A study of Mus musculus with 18 samples.

Results

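A set of 8 genes of cell contact was followed through the formation of the first follicles in the mouse ovary: the connexins Gja4, Gja1, Gjc1 and Gjb2 and the classical cadherins Cdh1, Cdh2, Cdh3 and Cdh11. They were taken as the non-control probes of the array whose gene name in the scanner files was that of a member, which gave 14 probes for 8 genes. All 8 had a probe that passed the filter on dim probes, among 19299 genes tested. The samples were whole XX gonads (ovaries) of mice labelled wild type (WT) or knockout (KO) for Elavl2, which encodes an RNA-binding protein, at the embryonic stages E15.5 and E17.5 and at P0, the day of birth. There were 3 samples in each of 6 groups, every one on its own 1-colour array, 18 in all, and the labels call the sample type mixed. They name neither the strain, the deleted part of Elavl2 nor the number of animals behind a sample, so that the spread behind each p-value is that between samples and may be technical.

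Connexins assemble into channels that join the cytoplasm of neighbouring cells. In the follicle, the connexin of the oocyte (connexin 37, from Gja4) lies at the contact with granulosa cells, which join each other through connexin 43 (from Gja1). Classical cadherins bind their like on the next cell and are tied to the actin skeleton through catenins; E-cadherin (Cdh1) and N-cadherin (Cdh2) hold germ cells and their somatic neighbours together in the nests that break up around birth. In RNA of a whole ovary, fewer cells of a type and less RNA per cell cannot be told apart.

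Gene starts on the RefSeq build GRCm38.p6 were used for 3 of the 8 genes. Those of Gja4 and Gja1 are shown because these connexins belong to the oocyte side and to the granulosa side of the follicle. Each stretch runs from 250 bases before to 30 bases after the start, at chr4:127314010-127314289 on the minus strand for Gja4 and at chr10:56377050-56377329 on the plus strand for Gja1. Capitals mark the E-box CANNTG, the motif of basic helix-loop-helix factors, which reads the same on both strands.
Gja4 promoter: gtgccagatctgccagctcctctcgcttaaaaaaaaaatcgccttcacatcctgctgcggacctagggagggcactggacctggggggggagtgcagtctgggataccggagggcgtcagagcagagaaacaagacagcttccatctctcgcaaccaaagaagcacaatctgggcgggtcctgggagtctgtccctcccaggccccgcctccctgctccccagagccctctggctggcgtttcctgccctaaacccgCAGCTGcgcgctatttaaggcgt
Gja1 promoter: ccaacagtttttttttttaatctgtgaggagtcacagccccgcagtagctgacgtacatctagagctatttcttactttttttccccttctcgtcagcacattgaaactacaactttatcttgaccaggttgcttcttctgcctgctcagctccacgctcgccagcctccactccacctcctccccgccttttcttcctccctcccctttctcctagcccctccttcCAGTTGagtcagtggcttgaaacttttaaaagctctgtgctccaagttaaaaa
The Gja4 window holds 1 E-box, CAGCTG, which begins 8 bases into the transcript, and the Gja1 window 1 as well, CAGTTG, which begins 23 bases before the start. The Gjb2 window has CAGGTG beginning 9 bases before its start. An E-box was present in 72.3% of 32851 windows of 300 bases, so its presence here is a description and not a site of binding.

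The arrays were read in 2 runs on 7 slides, and 62.5% to 75.2% of probes were well above background per array. All E15.5 arrays and replicate 3 of both E17.5 groups were of run A, and the others of run B. The run effect in the fit was thus estimated from the E17.5 groups alone, where run A held 1 array per genotype. Every change between stages given below depends on that estimate. The wild type arrays of E15.5 and those of P0 each filled a slide without knockout arrays of the same stage, and at E17.5 only the 2 arrays of replicate 3 (slide 3) shared a slide across genotypes. A level is the log2 signal less the 75th percentile of its array, a change is knockout minus wild type unless stated, and a value after ± is the standard error of the fit. The probe of Elavl2 read 4.48 to 4.59 in P0 wild type and 2.94 to 3.31 in P0 knockout, but 1.97 to 2.28 and 1.88 to 2.11 at E15.5. Whether that probe lies in the deleted part is not given in the sources used here, so it is no check of the labels. On build mm9 the files place the probes of Gja4 at chr4:126988848-126988907, Gja1 at chr10:56109814-56109873, Gjc1 at chr11:102661053-102661112, Gjb2 at chr14:57717629-57717688 and Cdh1 at chr8:109193812-109193871; their exon or UTR was not analysed here.

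The first question was where the genotypes differed. By limma with Benjamini-Hochberg adjustment over all genes, called under 0.05, none of the 8 genes was called at E15.5, where 1.62% of all genes tested were called; none had an unadjusted p under 0.05 either. At E17.5, 1 of 8 fell (Gja4), beside 4.16% of all genes called, 1.33% higher and 2.82% lower. At P0, 2 fell (Gja4 and Cdh1) and 1 rose (Gjc1), beside 34.5% of all genes, 18.3% higher and 16.1% lower. The median change of the 8 genes at P0 was 0.11, against -0.0009 over all genes. The knockout arrays lay wholly above or below the wild type arrays for none of the 8 genes at E15.5, for 1 at E17.5 and for 5 at P0, where the same held for 23.8%, 19.1% and 48.3% of all genes. The share of members called at P0 was thus close to that of all genes, and what follows concerns the size and timing of each gene's change.

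Gja4, the oocyte connexin, rose with stage in both genotypes and was lower in the knockout at E17.5 and P0. At E15.5 its level was 0.74, 0.71 and 0.59 in wild type and 0.56, 0.56 and 0.62 in knockout. At E17.5 it was 1.5, 1.71 and 2.19 against 1.09, 0.80 and 1.03, and at P0 it was 3.42, 3.17 and 3.06 against 1.75, 1.61 and 1.89. The groups overlapped at E15.5 and were apart at E17.5 and at P0, with every knockout array lower.

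The change in Gja4 was -0.10 ± 0.13 at E15.5 (limma adjusted p = 0.781, 95% interval -0.37 to 0.17). At E17.5 it was -0.83 ± 0.13, 1.77-fold lower (limma adjusted p = 0.00624, 95% interval -1.10 to -0.56). At P0 it was -1.47 ± 0.13, 2.77-fold lower (limma adjusted p = 5.83e-06, 95% interval -1.74 to -1.20). The P0 call held in all 20 alternative fits, with values from -1.55 to -1.33, and also past a 2-fold threshold. The E17.5 change was under 2-fold, and its call was lost in 3 of 21 alternative fits. These were the fit with a replicate block (limma adjusted p = 0.269), with only the E17.5 arrays (0.141), and without slide 3 (-0.66, 0.0569). Within run A, with 1 array per genotype, the E17.5 difference in Gja4 was -1.16, and within run B, with 2 per genotype, it was -0.66. The 2 run A arrays also differed in their markers. The mean of red cell markers differed by 3.40 within run A and 0.31 within run B, and that of germ cell markers by -0.91 and -0.11. The part of these differences in the Gja4 values was not tested. At P0 the Gja4 mean was 1.68 on the 2 knockout arrays of slide 7 and 1.89 on the knockout array of slide 4.

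In wild type, Gja4 rose by 1.34 ± 0.15 from E15.5 to E17.5 and by 1.53 ± 0.13 from E17.5 to P0 (limma adjusted p = 9.4e-05 and 5.83e-06). In knockout it rose by 0.62 ± 0.15 and 0.89 ± 0.13 (limma adjusted p = 0.0134 and 0.000289). The rise in knockout up to E17.5 was lost in 5 of 21 alternatives, among them the fit without the run term (0.39, adjusted p = 0.067). By mean level, not adjusted for run, the order of the 6 groups was P0 wild type, E17.5 wild type, P0 knockout, E17.5 knockout, E15.5 wild type and E15.5 knockout. In the fit with the run, P0 knockout lay 1.47 and E17.5 wild type 1.53 below P0 wild type, so the order of P0 knockout and E17.5 wild type was not settled. P0 wild type (3.22 ± 0.18 SD, n = 3) stood above all others, while E17.5 wild type (1.80 ± 0.36 SD, n = 3) and P0 knockout (1.75 ± 0.14 SD, n = 3) overlapped. The E15.5 groups also overlapped each other.

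Whether the genotype difference itself grew was tested as an interaction. From E15.5 to E17.5 the difference in Gja4 moved by -0.73 ± 0.18 (limma adjusted p = 0.117), and no member was called, beside 0.306% of all genes; 1 of the 8 had an unadjusted p under 0.05. From E17.5 to P0 it moved by a further -0.64 ± 0.18 (limma adjusted p = 0.038). Gja4 was the 1 member called there, downward, beside 10.4% of all genes, 4.28% higher and 6.12% lower. This call was lost in 15 of 27 alternatives, with values between -0.81 and -0.48.

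Levels of germ cell markers are given beside those of this oocyte gene. The mean log2 level of 7 germ cell markers was 3.73 ± 0.10 (SD, n = 3) in P0 wild type and 3.51 ± 0.09 (SD, n = 3) in P0 knockout. Their summed linear signal, in multiples of the 75th percentile, was 184.6 to 188.4 against 162.3 to 198.5. Of the 7, Tex101 and Dazl rose by 1.48 and 0.86, Pou5f1 fell by 3.73, and 4 were not called at P0 (42.9% called, beside 34.5% of all genes). By sign, 4 were higher and 3 lower in P0 knockout, with a median change of 0.21. The lower mean in knockout thus does not describe most of the list, and the fall in Pou5f1 is its largest part. Sohlh1 was not measured. Set against the mean of these 7 on the same array, Gja4 lay at -0.77 to -0.30 in P0 wild type and at -1.81 to -1.70 in P0 knockout. The groups were apart on that scale too, whereas at E17.5 (-1.5 to -1.20 against -2.14 to -1.46) they overlapped.

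Genes of the growing oocyte were lower too. Of 8 such markers, 5 fell at P0 and none rose (62.5%, beside 34.5% of all genes called and 16.1% lower). Among the 5 were Zp3 (zona pellucida), lower by 5.32, and Gdf9 (an oocyte growth factor), lower by 3.30. Bmp15, another growth factor of the oocyte and 1 of the 5, was not well above background on any of the 3 P0 knockout arrays. It was at least 6.87-fold lower there. It passed the filter only through the P0 wild type arrays, so its fall, though counted, is a description without a test. The 62.5% therefore cannot be read against the share of all genes. The mean of the 8 markers also includes its background reading in P0 knockout (-6.53). Against the mean of these 8 on the same array the direction turned: Gja4 lay at 0.42 to 0.73 in P0 wild type and higher, at 1.47 to 1.84, in P0 knockout. The turn does not hold against every marker of the list. From P0 wild type to P0 knockout the mean level went from 4.11 to 4.06 for Figla, 4.36 to 3.90 for Nobox and 3.29 to 2.88 for Kit. Gja4, from 3.22 to 1.75, fell by more than each of them. The mean level of the 8 markers was 2.69 ± 0.06 (SD, n = 3) in P0 wild type and 0.12 ± 0.27 (SD, n = 3) in P0 knockout, with summed signals of 89.9 to 97.0 and 35.3 to 49.7. All 8 were well above background on all P0 wild type arrays. At E17.5 the difference of their mean was -1.86 within run A and -0.39 within run B. The part of these markers in the Gja4 result was not tested. Gja4 is also a connexin of arterial endothelium. Of 8 endothelial markers, 6 rose and none fell at P0 (75%, beside 34.5% of all genes called and 18.3% higher). The summed signal of these 8 was 8.81 to 10.5 in wild type and 12.4 to 14.2 in knockout.

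**Figure D1:**
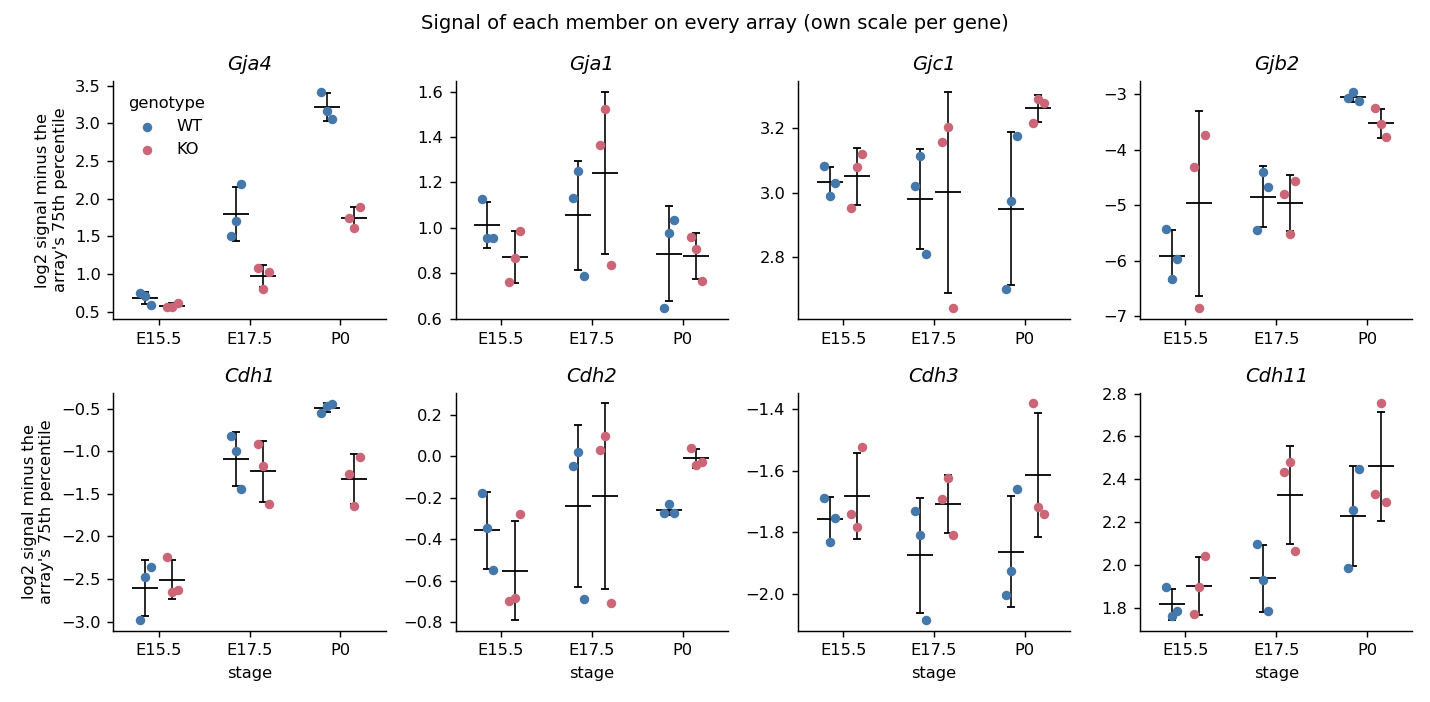
Level of each of the 8 genes (log2 signal minus the array's 75th percentile, own scale in each panel) on every array by stage, wild type in blue and knockout in red, with black bars for the mean and SD of 3 arrays. Gja4 climbs at each stage in both genotypes and Cdh1 from E15.5 to E17.5, and at P0 all knockout arrays of both lie below all wild type arrays.

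Of the other connexins, Gja1, the granulosa connexin, was 0.65, 0.98 and 1.03 in P0 wild type and 0.96, 0.91 and 0.76 in P0 knockout. The groups overlapped, and the change was -0.01 ± 0.11 (limma adjusted p = 0.959, 95% interval -0.24 to 0.22). Over stages its level was lower at P0 than at E17.5, by 0.34 ± 0.11 in wild type and 0.53 ± 0.11 in knockout (limma adjusted p = 0.0295 and 0.0029). Both calls were lost without the run term, where the values read -0.17 and -0.36 (adjusted p = 0.456 and 0.103), and with slides as random blocks, and the arrays of the 2 stages overlapped in both genotypes. The wild type call was lost in 11 of 21 alternative fits, among them those without E17.5 replicate 2 or 3 or P0 replicate 1 (-0.32, -0.30 and -0.22). The Gja1 probe is printed 10 times on the array, and its spots had a median SD within an array of 0.05, below the SD between replicate arrays of 0.10 to 0.36. Of 8 markers of pregranulosa cells, 4 rose and none fell at P0 (50%, beside 34.5% of all genes called and 18.3% higher). The summed signal of the 7 measured on all arrays was 60.3 to 72.2 in wild type and 77.0 to 91.6 in knockout.

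Gjc1 encodes connexin 45, which joins many embryonic cell types. Its level in P0 wild type was 2.70, 2.97 and 3.18, and in P0 knockout 3.22, 3.29 and 3.28. The groups were narrowly apart, and Gjc1 rose by 0.31 ± 0.10, 1.24-fold (limma adjusted p = 0.0325). The other probe of the gene gave 0.31 ± 0.09 (limma adjusted p = 0.0236). The call was lost in 12 of 21 alternatives, among them leaving out any P0 array except wild type replicate 3, and without wild type replicate 1, the lowest, the change was 0.19 (adjusted p = 0.138). At E15.5 and E17.5 the changes in Gjc1 were 0.02 ± 0.10 each (limma adjusted p = 0.961 and 0.931).

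Gjb2 encodes connexin 26, a channel of epithelia. It was dim, well above background on 15 of 18 arrays with its brighter probe and on none with the other. Its level was -5.43, -6.34 and -5.97 in E15.5 wild type, -5.46, -4.40 and -4.67 in E17.5 wild type, and -3.07, -2.96 and -3.11 in P0 wild type. The P0 arrays thus stood clear of the earlier ones, and Gjb2 rose by 1.94 ± 0.64 from E17.5 to P0 in wild type (limma adjusted p = 0.0268), a call lost in 6 of 20 alternatives, which include leaving out E17.5 replicate 1 (1.61) or any of the 3 P0 arrays. In P0 knockout Gjb2 was -3.25, -3.54 and -3.77, below all wild type arrays, with a change of -0.47 ± 0.60 that was not called (limma adjusted p = 0.568, 95% interval -1.78 to 0.83). At E15.5 the knockout arrays ran from -6.86 to -3.74, wider than any other group of the gene.

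Cdh1 (E-cadherin) rose from E15.5 to E17.5 in both genotypes and was lower in the knockout at P0. Its level was -2.98, -2.47 and -2.36 in E15.5 wild type and -2.24, -2.65 and -2.63 in E15.5 knockout. At E17.5 it was -0.82, -0.99 and -1.44 against -0.92, -1.17 and -1.62. At P0 it was -0.55, -0.47 and -0.45 in wild type and -1.26, -1.64 and -1.07 in knockout. The genotypes overlapped at E15.5 and E17.5, and at P0 every knockout array was lower.

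The change in Cdh1 was 0.10 ± 0.17 at E15.5 and -0.15 ± 0.17 at E17.5 (limma adjusted p = 0.861 and 0.646). At P0 Cdh1 fell by 0.83 ± 0.17, 1.78-fold (limma adjusted p = 0.00293, 95% interval -1.21 to -0.46). The change was under 2-fold; its call held in 19 of 20 alternative fits and was lost with the slide as a random block (-0.84, adjusted p = 0.0582). The difference was not shown to grow from E17.5 to P0: the interaction for Cdh1 was -0.68 ± 0.25 (limma adjusted p = 0.0934). Its probe is printed 10 times, and the spots' median SD within an array was 0.08.

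From E15.5 to E17.5 Cdh1 rose by 1.15 ± 0.21 in wild type and 0.90 ± 0.21 in knockout (limma adjusted p = 0.00224 and 0.0101). In wild type the call was lost with the replicate number as a block (adjusted p = 0.0592) and without E17.5 replicate 3 (0.0743); in knockout it was lost in 4 of 21 alternatives, which include the block (0.112) and leaving out E17.5 replicate 3 (0.0932). From E17.5 to P0 the wild type value was 0.41 ± 0.18 and the knockout value -0.27 ± 0.18, neither of them called (limma adjusted p = 0.087 and 0.276). P0 wild type thus had the highest level of the 6 groups (-0.49 ± 0.05 SD, n = 3), the E17.5 groups and P0 knockout overlapped each other between -1.64 and -0.82, and both E15.5 groups lay at or below -2.24.

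Cdh1 is made by germ cells and by epithelia. Markers listed for the surface epithelium went the other way at P0, where 5 of 8 rose and none fell. That was 62.5%, beside 34.5% of all genes called and 18.3% higher. Their summed signal was 52.4 to 63.6 in wild type and 74.6 to 82.0 in knockout. By sign all 8 were higher in P0 knockout, but unevenly. From P0 wild type to P0 knockout the mean level went from 1.39 to 2.33 for Lhx9 and from 2.31 to 2.85 for Krt19. Msln went only from 0.71 to 0.86 and Upk1b from -3.05 to -2.98. Whether the markers that rose are made by the surface epithelium alone was not tested. Of 8 markers of mesonephric or tubal epithelium, 50% were called, beside the 34.5% of all genes: 3 rose (Emx2, Wt1 and Epcam, which other cells of the fetal ovary share) and Lhx1 fell. Relative to the 7 germ cell markers on the same array, Cdh1 lay at -4.28 to -4.11 in P0 wild type and at -5.05 to -4.66 in P0 knockout, again apart. Relative to the mean of the 8 oocyte growth markers the direction turned, with Cdh1 at -3.23 to -3.08 in P0 wild type and -1.67 to -1.17 in P0 knockout. Figla, Nobox and Kit of that list, with the levels given above, moved less than Cdh1. The turn thus does not hold against every marker, and the mean includes Bmp15, which was at background in P0 knockout. The part of these cell types in the Cdh1 result was not tested.

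**Figure D2:**
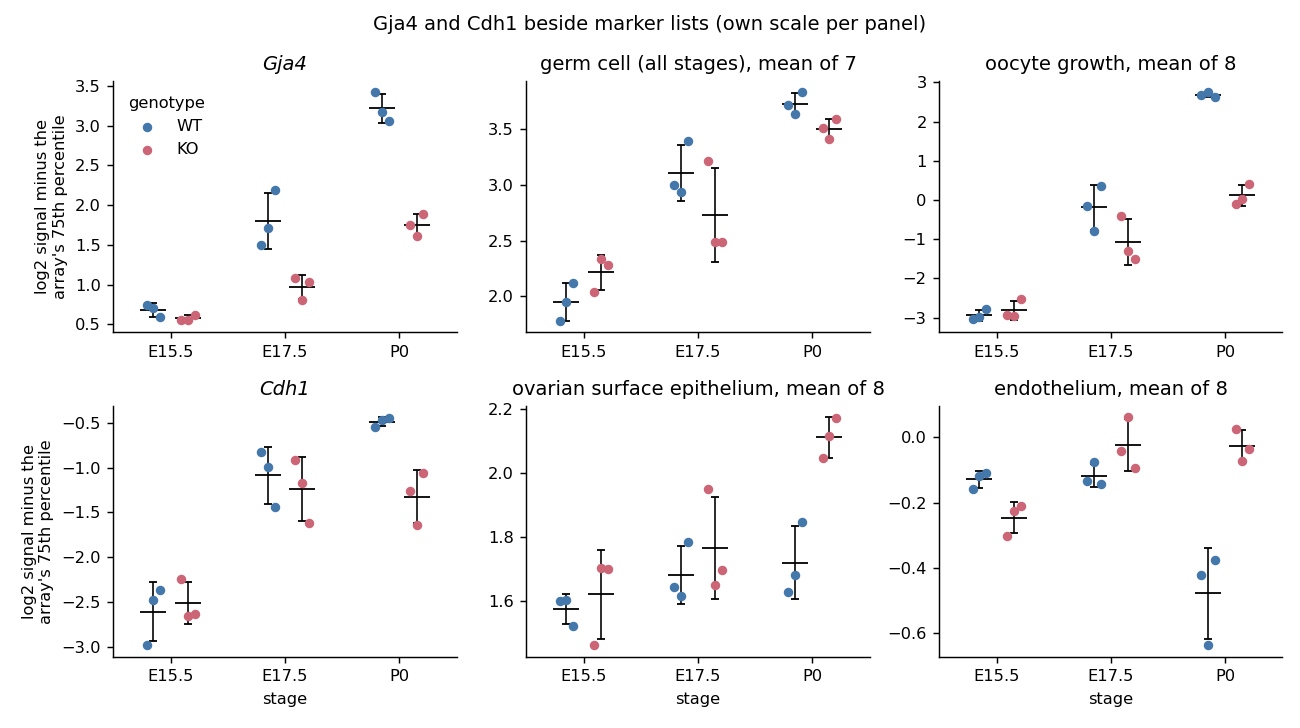
Levels of Gja4 and Cdh1 beside the mean level of 4 marker lists on every array (log2 signal minus the array's 75th percentile, own scale in each panel), wild type in blue and knockout in red, with black bars for the mean and SD of 3 arrays. At P0 the oocyte growth list had a mean of 2.69 in wild type and 0.12 in knockout, while the epithelial and endothelial lists were higher in knockout.

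The remaining cadherins were not called between genotypes. Cdh2 (N-cadherin) was -0.27, -0.23 and -0.27 in P0 wild type and 0.04, -0.04 and -0.03 in P0 knockout. The groups were apart, yet the change of 0.25 ± 0.11 was not called (limma adjusted p = 0.0944). Its 2 other probes were dim, well above background on 4 and 0 of 18 arrays. At E17.5 the replicate 3 arrays of run A read -0.69 and -0.71 for Cdh2 and the 4 arrays of run B -0.05 to 0.10, so the genotypes overlapped within a spread that followed the run.

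Cdh3 (P-cadherin, an epithelial cadherin) was -2.01, -1.92 and -1.66 in P0 wild type and -1.38, -1.72 and -1.74 in P0 knockout, with a change of 0.25 ± 0.11 (limma adjusted p = 0.103). The groups overlapped. Cdh11, a cadherin of mesenchyme, was 2.10, 1.93 and 1.78 in E17.5 wild type and 2.43, 2.48 and 2.06 in E17.5 knockout, overlapping, with a change of 0.39 ± 0.13 (limma adjusted p = 0.117). Its other probes gave 0.31 ± 0.09 and 0.18 ± 0.15 there. At P0 the Cdh11 probes disagreed in sign, with 0.23 ± 0.13, 0.05 ± 0.09 and -0.06 ± 0.15, none of them called. Of 8 stromal markers, 2 rose and none fell at P0 (25%, beside 34.5% of all genes called and 18.3% higher), with summed signals of 247.9 to 283.2 and 244.7 to 309.6. With each array scaled to its median in place of its 75th percentile, which moved the median of all genes at P0 by 0.139 and the share of higher calls from 53.1% to 73.3%, all 3 of Cdh2, Cdh3 and Cdh11 were called higher at P0 (0.39, 0.39 and 0.37).

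**Figure D3:**
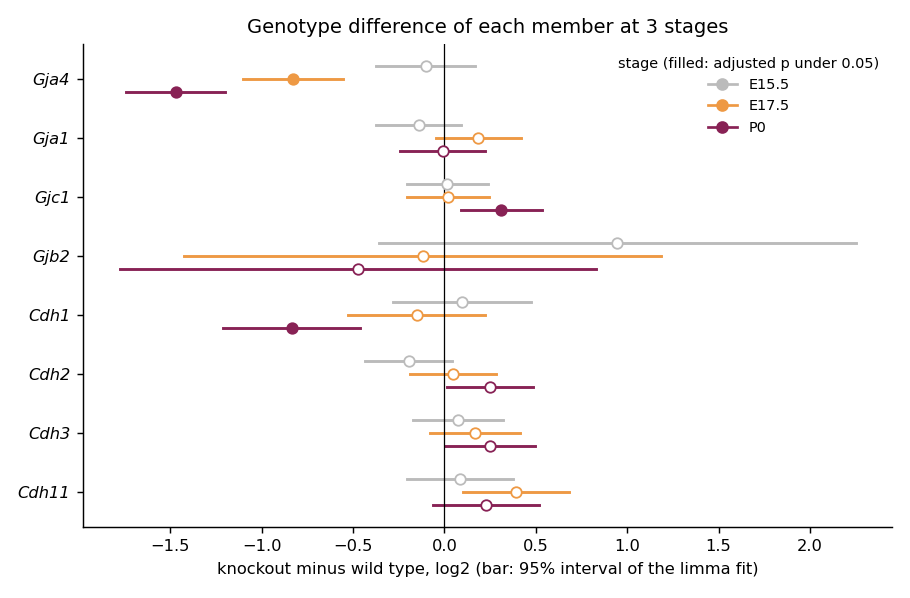
Genotype difference of each of the 8 genes (knockout minus wild type, log2) at E15.5, E17.5 and P0, with bars for the 95% interval of the limma fit and filled points for adjusted p under 0.05. Gja4 moves from -0.10 to -0.83 and -1.47, Cdh1 stands apart from 0 at P0 alone, and Gjb2 has the widest intervals.

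Across stages, the 8 genes were called as follows, with knockout and wild type taken separately. From E15.5 to E17.5, Gja4 and Cdh1 rose in wild type, 2 of 8, where 26.4% of all genes were called (15.3% higher and 11.1% lower), and the same 2 rose in knockout, where 21.8% were called (11.8% higher and 9.98% lower). From E17.5 to P0, Gja4 and Gjb2 rose and Gja1 fell in wild type, 3 of 8, beside 43.3% of all genes (22.1% higher and 21.2% lower). In knockout Gja4 rose and Gja1 fell, 2 of 8, beside 37.2% of all genes (18.2% higher and 19% lower). Cdh2, Cdh3, Cdh11 and Gjc1 were called in none of these stage comparisons, though the other Gjc1 probe was called lower from E15.5 to E17.5 in wild type (-0.37, limma adjusted p = 0.0349).

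The other genes of the junctions were counted from lists. Their counts at P0 stand beside 34.5% of all genes called, 18.3% higher and 16.1% lower. Of 19 other connexins and pannexins, 9 were measured, and 2 rose and 3 fell at P0 (55.6%), with a median change of -0.12. Gjb6 (connexin 30) was well above background on all 3 P0 wild type arrays and on no array of the other 5 groups, and it was at least 1.41-fold lower in P0 knockout. Gja3 (connexin 46) was well above background on 1 of 3 E17.5 and 3 of 3 P0 wild type arrays and on no knockout array, and it was at least 1.5-fold lower in knockout at P0. Both passed the filter only through the P0 wild type arrays, so that their fall there is a description without a test. Both are among the 3 that fell, so the 55.6% and the median of this list cannot be read against those of all genes. Gjb5, a connexin of stratified epithelia, rose by 0.53 ± 0.12 (limma adjusted p = 0.00451).

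Of 14 other classical cadherins, 11 were measured, and 2 rose and 2 fell at P0 (36.4%). Cdh5, the cadherin of endothelium, rose by 0.57 ± 0.12 and Cdh4 by 0.60 ± 0.16, while Cdh15 fell by 0.86 ± 0.24 and Cdh22 by 0.52 ± 0.16 (limma adjusted p = 0.00332 to 0.0221). At E15.5 Cdh12 was not well above background on any knockout array, against 2 of 3 wild type arrays, and was at least 1.61-fold lower (limma adjusted p = 0.0225). Cdh12 passed the filter only through the E17.5 knockout arrays. Its call at E15.5 rests on knockout readings at background and is a description rather than a firm result. No other gene of the cadherin list was called at E15.5 or E17.5.

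All 13 catenins and cadherin partners were measured, and 3 rose and 3 fell at P0 (46.2%, beside the 34.5% of all genes). The genes that rose were alpha-catenin Ctnna1 by 0.51 ± 0.07, p120-catenin Ctnnd1 by 0.53 ± 0.10 and beta-catenin Ctnnb1 by 0.30 ± 0.06 (limma adjusted p = 0.000188 to 0.00321). Beta-catenin and alpha-catenin link cadherins to actin, and p120-catenin keeps them at the membrane. The p120 relatives Arvcf and Ctnnd2 fell by 0.59 ± 0.14 and 0.62 ± 0.15, and afadin (Afdn), which ties nectins to actin, by 0.53 ± 0.15. Afdn was already lower at E17.5, by 0.76 ± 0.15 (limma adjusted p = 0.0164).

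Of 17 nectins and tight junction genes, 16 were measured, and 5 rose and 2 fell at P0 (43.8%, beside the 34.5% of all genes). Nectin1 rose by 0.51 ± 0.10 and the claudin Cldn1 by 0.95 ± 0.19. Tjp3, a tight junction scaffold, was called at E15.5 as 1.04 ± 0.20 higher and at P0 as 1.08 ± 0.20 lower, and occludin (Ocln) fell by 0.58 ± 0.21 at P0. Of 7 repressors of E-cadherin, Twist1 rose by 0.58 ± 0.12 and Snai1 by 0.28 ± 0.08 at P0 and none fell (limma adjusted p = 0.0023 and 0.0155). The share called, 28.6%, was below the 34.5% of all genes. In wild type from E17.5 to P0, 5 of the 7 fell and none rose, beside 21.2% of all genes lower, and in knockout 4 fell and none rose, beside 19% lower. For Twist1 the interaction was called: its genotype difference moved by 0.74 ± 0.16 from E17.5 to P0 (limma adjusted p = 0.0157).

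**Figure D4:**
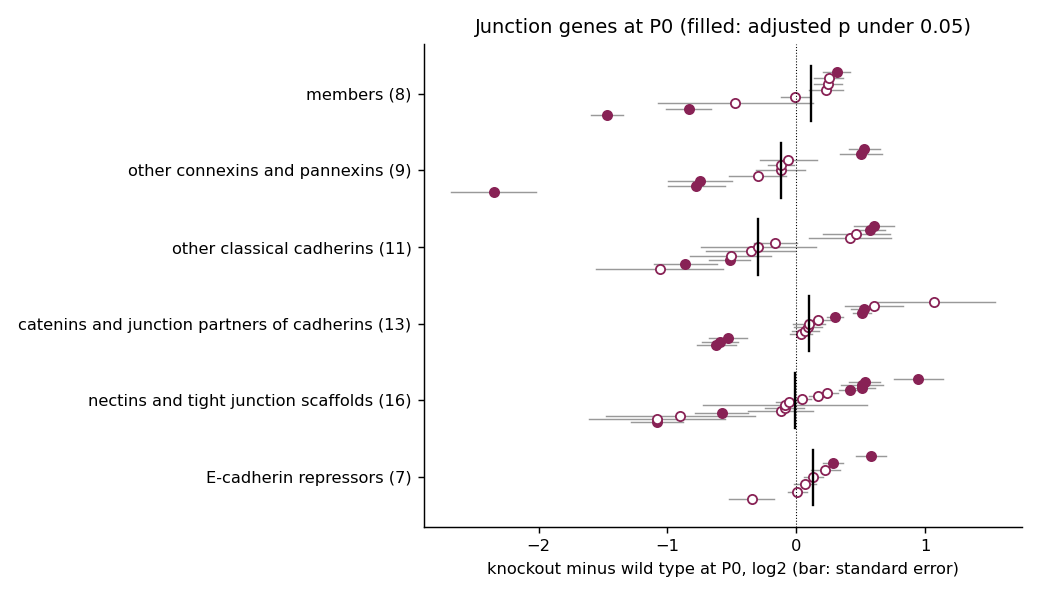
Knockout minus wild type at P0 (log2, bars for the standard error) for each measured gene of the 8 members and 5 lists of junction genes, filled where adjusted p was under 0.05, with a vertical line at each list's median. The members' median was 0.11 and the lists' medians ran from -0.29 to 0.13; the farthest point left is Gjb6, whose fitted value is no bound.

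Genes with the most similar course were found by the root mean square difference of centred log2 levels over the 18 arrays. Nearest to Gja4 were Cpeb3 at 0.22, Fbxl2 at 0.23 and Slc13a4 at 0.23, where the level of Gja4 itself spanned 2.86. Nearest to Cdh1 were Plekhd1 at 0.27, Bicd1 at 0.29 and Cfap45 at 0.32, with a span of 2.53 for Cdh1. Gjc1 spanned only 0.65, and its nearest, Rab28, Matr3 and Rac1, lay within 0.08 to 0.10. The levels were not adjusted for run, which such likeness can include: at E17.5 Gjc1 read 2.81 and 2.64 in run A and 3.02 to 3.20 in run B.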

How the data were processed

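Gene expression was measured in 18 samples of whole mouse ovary on Agilent 4x44K arrays of design 014868. The deposited scanner files hold a background-subtracted intensity per spot, which the authors extracted with Agilent's Feature Extraction (10.7.3.1 per the file headers, 9.5 per the submitters' processing notes; which applies is not settled). The deposited series matrix holds log2 values, each column the log2 intensity plus 1 constant per array (75th percentile 9.62 throughout, medians 6.17 to 6.46, genes not centred). Coordinates of probes in the files are on build mm9, and promoters come from RefSeq on GRCm38.p6. The deposited columns of marks for background and outliers (unit other) were used as filters.

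Control spots were removed, as were outlier spots (51 to 109 an array); 0 spots were saturated. For 41174 probes the log2 intensity less each array's 75th percentile was used. The filter kept a probe if some group had it well above background on its 3 arrays (29203 probes), and the brightest probe on average stood for a gene. Names followed RefSeq accessions for 28215 probes and the file for 12959. Groups and replicate numbers came from the labels. The limma 3.58.1 fit (lmFit and eBayes, R 4.3.3) had 6 groups and the run as terms over all 18 arrays, with 11 residual degrees of freedom, tested on simulated data first; the 3 arrays per group limit the precision. Where a gene was not well above background on any array of a group, the fold is a lower bound, taken on each array against the higher of the probe's own signal and the dimmest signal well above background. Marker means leave out a gene with a missing spot. Plots came from Python 3.11.15 and matplotlib 3.10.9.

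Same-numbered arrays were checked for pairing by the correlation of their deviations from the group means. At E17.5 it was 0.12, 0.40 and 0.45, all over 0.1, so the blocked value stands beside that result. Replicate 3 there was of another run in both genotypes. A shift shared by the run can alone make these correlations positive, so they do not show that the arrays pair by number. At E15.5 (0.18, 0.21 and -0.12) and P0 (0.15, 0.10 and 0.08) not all values were over 0.1. Pairing by number was neither shown nor excluded at these stages. The members and gene lists were chosen with earlier results of these data known. Every member is named; of the other lists, the called genes with the smallest adjusted p, up to 4 per list and comparison, could be named, and Gja3 at P0, Ctnnd2, Afdn at P0, Ocln and the markers are named beyond that rule; some genes of the lists are not reported by name here. Alternatives were other background correction and scaling, the matrix values, other filters, no run term, the mean of probes, other moderation, array weights, the slide as a random block, fewer groups, the replicate block, a 2-fold threshold and leaving out arrays; leaving out slide 3 was added after seeing the data.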

Additional observations from a re-analysis of the deposited data

Results flagged for a closer look

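The genotype difference in Gja4 differed between stages by a test of the difference itself: from E17.5 to P0 it moved by -0.64 ± 0.18 (limma interaction term, adjusted p = 0.038), with all 3 knockout arrays below all 3 wild type arrays at both stages. The call was lost in 15 of 27 alternatives. Among these were scaling by the array median (-0.48, adjusted p = 0.112) and the slide as a random block (-0.52, adjusted p = 0.404). Leaving out replicate 1 or 2 of any of the 4 groups also ended it, with values from -0.68 to -0.51. Its cause was not tested.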

How the results depend on the processing

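The Gja4 fall at P0 kept its direction and its call in all 20 alternative fits and past a 2-fold threshold; the Cdh1 fall at P0 lost its call with the random slide block and is under 2-fold. Counts of members called moved as follows. A 2-fold threshold left 0 at E17.5, 1 at P0, and 0 in the knockout stage steps and the interaction from E17.5 to P0. Array median scaling gave 6 at P0, and from E15.5 to E17.5 it gave 6 for wild type and 1 for knockout, and 0 for the interaction; it took the calls over all genes at E17.5 from 802 to 385 and their higher share from 32% to 19.7%. The random slide block (consensus correlation 0.337) gave 1 at P0, 1 in each stage step except wild type to E17.5 (2), and 0 for the interaction. Without the run term the knockout steps gave 1 each and the interaction 0; array weights gave 1 for wild type to P0 and 0 for the interaction; normexp with quantile gave 2 for the interaction and no filter gave 0.

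With only the groups compared, the count was 0 at E17.5, for knockout to E17.5 and for the interaction. The replicate block gave 0 at E17.5, 1 in wild type and 0 in knockout to E17.5; elsewhere it moved no count by over 1.5 times, but at P0 it ended the Gjc1 call (adjusted p = 0.129). Run B alone at E17.5 gave 5 members in knockout to E17.5, and leaving out slide 3 gave 5 there and 0 at E17.5. In both, stage and run cannot be told apart, and Cdh2 turned from -0.12 to 0.62 and 0.75 in knockout, and in wild type, without slide 3, from -0.36 to 0.34. Leaving out single arrays gave 0 to 1 members at E15.5, 1 at E17.5, 2 to 4 at P0, 1 to 3 in wild type at either step, 1 to 2 in knockout to E17.5, 2 in knockout to P0, and 0 to 1 for each interaction. The gene called at E15.5 was Gjb2, without knockout replicate 2 (1.89). Other causes were not tested. Low signal limits Gjb2 and the dim probes of Cdh2.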
